A study of Mus musculus with 4 samples.

Results

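Focal H3K9me3 sites are 10 kb stretches of the genome that stood out from the whole-cell extract for H3K9me3 while the 100 kb around them did not. They were sought among 246251 autosomal 10 kb tiles, and 123 tiles met all limits. A tile needed at least 25 H3K9me3 reads, a count at least 3 times the whole-cell extract (WCE) count after scaling to equal autosomal totals, and a place in a 100 kb tile whose scaled H3K9me3 to WCE ratio was below 1.5. The WCE count entered with a minimum of 3, which no member needed. The H3K9me3 and WCE counts chose the members, so these counts are described here and not tested.

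The cells were MDER 10T cells, labelled as fibroblasts and, by the series title, carrying an estrogen-inducible MyoD1. Chromatin immunoprecipitation followed by sequencing was done with Abcam antibodies against H3K9me3, H3K4me3 and H3K27me3, and WCE was sequenced without antibody. All 4 libraries came from cells grown in DMEM/F12 that lacked phenol red and held 10% FCS, and the labels mention neither estrogen nor differentiation. Each of the 4 groups holds 1 library, so there is no spread between replicates, and every interval below covers counting error only.

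Trimethylation of lysine 9 on histone H3 marks heterochromatin. It is laid down by enzymes such as SUV39H1, SUV39H2 and SETDB1 and is read by HP1 proteins, which helps it spread over long repeat-rich blocks. Besides such blocks, short patches of the mark are known over some retroviral elements and at the methylated allele of imprinting control regions. There SETDB1 is brought in by KRAB zinc finger proteins through TRIM28. H3K4me3 is typical of active promoters and H3K27me3 of genes held silent by Polycomb. Reads that match more than 2 places were dropped at alignment, so the most repeated part of heterochromatin is not measured here. Positions are in mm8 and are printed with the first base as 1. The files do not say whether theirs count from 0 or 1, or which end of a reverse-strand read is given, so reads next to a tile edge may belong on its other side. No gene annotation or genome sequence of that build was used, so the sites are named by position alone.

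After repeated positions were collapsed to 1 read per position and strand, the autosomes held 2101444 H3K9me3, 3086567 H3K4me3, 2933567 H3K27me3 and 2977697 WCE reads. Each member therefore rests on few reads. Members held 25 to 129 H3K9me3 reads (median 29) beside 7 to 44 WCE reads (median 12), and 65 of 123 held 25 to 29. The scaled ratio ran from 3.02 to 5.47 with a median of 3.38, and 65 members lay below 3.5. The lower 95% Clopper-Pearson limit of the ratio reached 2 in 30 members. The libraries were amplified by PCR and carry no molecular identifiers, so reads need not stand for separate molecules and the limits cover counting error only.

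**Figure D1:**
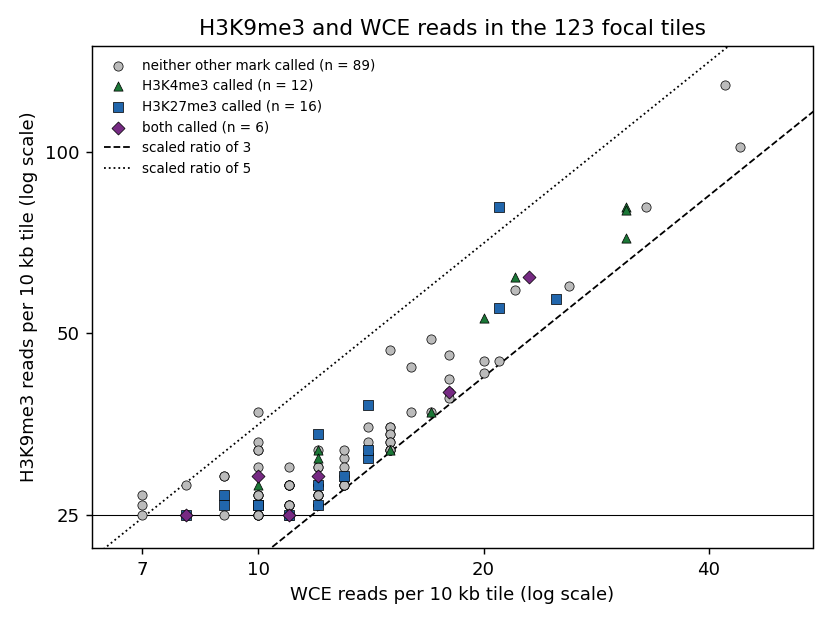
H3K9me3 reads against WCE reads in each of the 123 members, both on log axes, with symbols for members where H3K4me3, H3K27me3 or both were called against their surroundings. Most members sit near the lower limits, with 25 to 29 H3K9me3 reads in 65 of them, and 14 members hold 50 reads or more.

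The limits pass through a continuous range of values. The members nearest the ratio limit had 32 H3K9me3 and 15 WCE reads (3.023), and the nearest tile outside it, on chromosome 12 at 88790001, had 40 and 19 (2.983). With all else met, 18 members held 25 reads and 15 further tiles held 24. At the 100 kb limit the nearest member, on chromosome 5 at 117330001, lay in a 100 kb tile at 1.494, and the nearest tiles outside lay at 1.5. Tiles thus continued on both sides of each limit.

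By ratio, the member on chromosome 6 at 47950001 stood highest. It held 81 H3K9me3 and 21 WCE reads, a ratio of 5.47 (95% interval 3.35 to 9.30), with 27 H3K4me3 and 28 H3K27me3 reads. Its H3K27me3 count was 2.02 times that of its surroundings, which passed an exact binomial test within that library (adjusted p = 0.0407, Benjamini-Hochberg). The same ratio came from only 27 H3K9me3 and 7 WCE reads on chromosome 7 at 96570001 (2.32 to 14.9), where the wide interval reflects the few WCE reads. On chromosome 6 at 119130001, 26 H3K9me3 reads faced 7 WCE reads (5.26, 2.22 to 14.4). The member on chromosome 15 at 63830001 held 37 and 10 (5.24, 2.56 to 11.8). High ratios of this kind mostly came with low WCE counts: of the 10 members ranked highest after 1 read was added to each count, 8 had 10 WCE reads or fewer.

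The members with most H3K9me3 reads were better measured. Chromosome 8 at 73520001 held 129 H3K9me3 and 42 WCE reads (ratio 4.35, 3.05 to 6.32), and its H3K4me3 and H3K27me3 counts were 41 and 43, close to the WCE count. Chromosome 18 at 37940001 held 102 H3K9me3, 117 H3K4me3, 29 H3K27me3 and 44 WCE reads (3.28, 2.29 to 4.79). Beside chromosome 6 at 47950001, 81 H3K9me3 reads were also found on chromosome 6 at 48520001 (108 H3K4me3, 44 H3K27me3 and 31 WCE reads, ratio 3.70) and on chromosome 8 at 111680001 (53, 38 and 33, ratio 3.48). H3K4me3 had more raw reads than H3K9me3 in 2 of these 5 tiles, but after scaling to equal totals H3K9me3 was the highest in all 5, with 145 against 113 on chromosome 18 and 115 against 104 on chromosome 6 at 48520001. The 5 tiles were picked for most H3K9me3 reads, which favours that order.

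Members stood out from their surroundings in 2 ways at once, through more H3K9me3 reads and through fewer WCE reads. Each member was set against the mean of the other tiles of its own 100 kb tile in the same library. H3K9me3 was higher than that mean in all 123, by a median of 2.19-fold (range 1.11 to 11.4). WCE was lower in 105 of 123, with a median of 0.669-fold (0.325 to 2.03), where all autosomal tiles had a median of 0.965. Of the 123 members, 30 (24.4%) also reached 3 times the mean WCE count of their 100 kb tile, so their place in the class does not rest on a low WCE count in the tile. The other 93 do rest on it. On chromosome 7 at 111960001, for example, H3K9me3 was 1.44 times and WCE 0.325 times the surroundings.

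The WCE deficit was seen at members below 50 H3K9me3 reads. The rule partly sets this, since few H3K9me3 reads reach a ratio of 3 only beside a low WCE count. In the 65 members with 25 to 29 H3K9me3 reads, WCE had a median of 0.615 of its surroundings and H3K9me3 2.05. In the 44 members with 30 to 49, WCE stood at 0.680 and H3K9me3 at 2.12. In the 14 members with 50 or more, WCE stood at 1.16 and H3K9me3 at 4.66. The largest H3K9me3 fold, 11.4, was on chromosome 12 at 56510001, where 62 H3K9me3 reads lay in a tile whose WCE count, 23, was itself 2.03 times its surroundings.

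**Figure D2:**
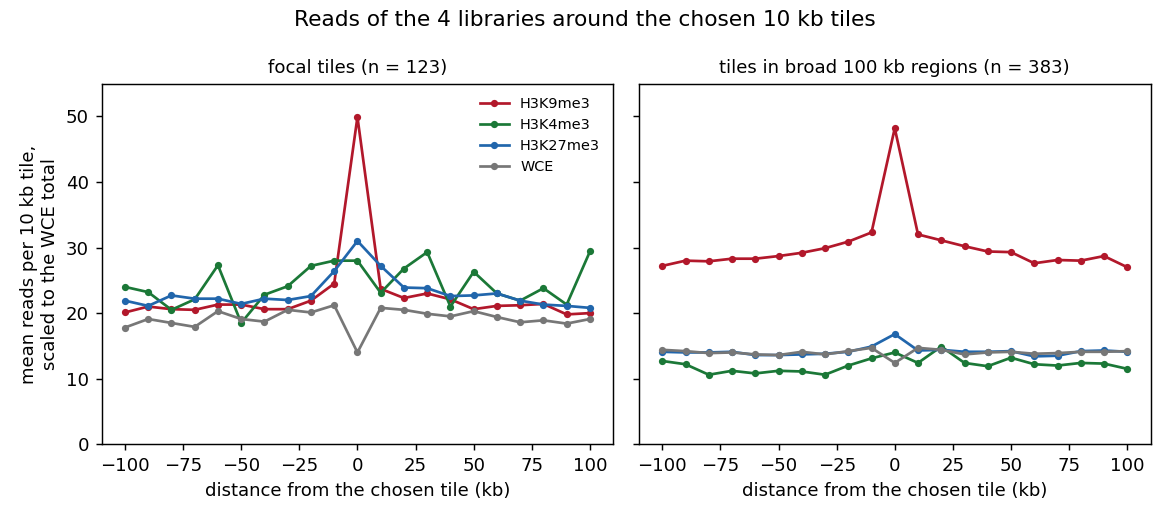
Mean reads per 10 kb tile, scaled to the WCE total, from 100 kb before to 100 kb after the chosen tiles, for the 123 members and for the 383 tiles that passed the same count and ratio inside 100 kb tiles at or above 1.5. In the left panel H3K9me3 reaches 49.9 in the member and 23.7 to 24.5 in the adjacent tiles, while WCE dips to 14.0 between neighbours at 20.8 and 21.2; in the right panel H3K9me3 stays at 27 or more throughout.

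The excess did not extend far. Pooled over members, the H3K9me3 to WCE ratio was 3.56 in the member, 1.16 and 1.14 in the tiles on either side, and 1.0 to 1.16 in every tile from 20 to 100 kb away. For the 383 tiles that passed the same count and ratio inside broad 100 kb tiles, the ratio was 3.88 in the tile and 1.89 to 2.21 over the same distances. That gap follows from the 100 kb limit which separates the classes. Of the members, 74 had no neighbour at 1.5 or more, 28 belonged to a run of 2 such tiles and 21 to a run of 3 or more. A neighbouring tile at 2 or more was present for 20 members.

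The surroundings were slightly above the genome in H3K9me3. The 100 kb tile had a median ratio of 1.26 (0.921 to 1.49) with the member and 1.08 without it, where the median over all autosomal tiles was 0.945. Without the member, 35 of 123 lay below 1. The containing megabase had a median ratio of 1.08 (0.813 to 2.25), against 0.960 over 2191 autosomal megabases with at least 500 WCE reads, and 5 members lay in megabases at 1.5 or above. The sites lowest in their surroundings were on chromosome 17 at 36800001 (0.636 without the member), chromosome 12 at 56510001 (0.681) and chromosome 7 at 4630001 (0.699).

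Some members lay at the edge of wider enrichment that the fixed tiles cut through. An adjoining 100 kb tile with at least 50 WCE reads reached 1.5 for 13 members (10.6%), on both sides for 2. With 110 kb centred on the member in place of the fixed tile, 13 members reached 1.5. The clearest was on chromosome 15 at 84080001, with 47 H3K9me3 and 15 WCE reads, where 14 tiles in a row (140 kb) were at 1.5 or more. Its 100 kb tile was at 1.44 and the centred 110 kb at 1.97. This member met the rule but lay within a stretch of enriched tiles.

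Within the tile the H3K9me3 reads were gathered but not in one narrow peak. Over members, the best of the 10 fixed 1 kb bins held a median of 25% of the tile's H3K9me3 reads (15.2 to 54.8%), where an even spread without counting noise would give 10% to each. The shortest interval with at least 50% of the reads had a median length of 2.44 kb (0.609 to 4.71). Reads occupied a median of 9 of the 10 bins, and 3 members had 50% or more in 1 bin. With few reads, the best bin is high by choice alone. The WCE reads of the same tiles, which played no part in choosing the bin, had 14.4% there, H3K27me3 16.5% and H3K4me3 21.4%, against 27.6% of the H3K9me3 reads. The pooled H3K4me3 share leaned on few tiles. The bin held 96 H3K4me3 reads on chromosome 1 at 180170001 and 75 on chromosome 13 at 38660001. It held 71 on chromosome 14 at 68810001 and 62 on chromosome 8 at 37050001. In the profile by distance, each tile was centred on its own H3K9me3 reads, so the central H3K9me3 maximum is partly set by the centring and its height is not comparable with the other libraries.

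**Figure D3:**
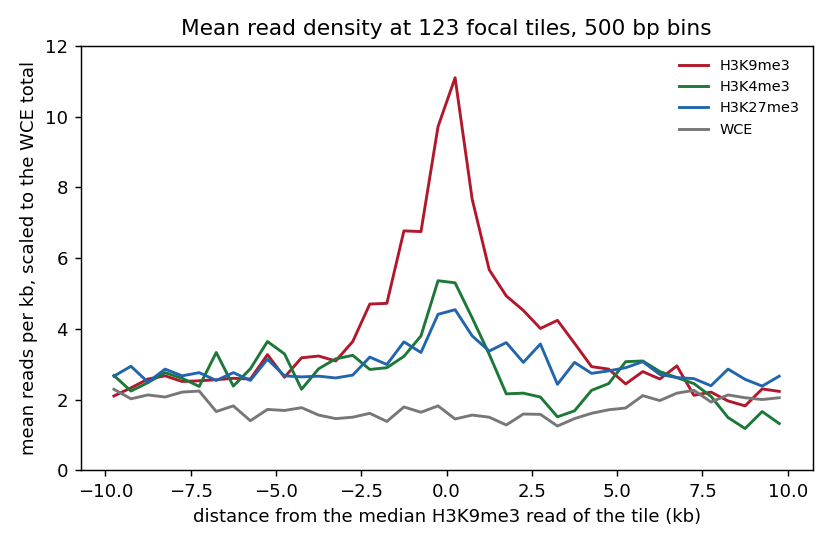
Mean reads per kb, scaled to the WCE total, in 500 bp bins from 10 kb before to 10 kb after the median H3K9me3 read of each of the 123 members. H3K9me3 peaks at 11.1 in the central bins, partly through the centring on its own reads, and is down to 2.93 by 4.25 kb on the right. H3K4me3 and H3K27me3 have maxima of 5.36 and 4.54 at the same place, and WCE shows no central maximum. Heights are not comparable between H3K9me3 and the other libraries. The H3K4me3 mean covers tiles of 3 to 272 reads, so few tiles can weigh heavily in it.

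By the share of reads in 1 bin, the most concentrated sites were on chromosomes 12, 6 and 2. By the shortest interval with 50% of the reads, the narrowest was on chromosome 1 at 180170001 (0.609 kb). On chromosome 12 at 56510001, 34 of 62 H3K9me3 reads (54.8%) lay in the 1 kb from 56518001, with 4 WCE reads there. On chromosome 6 at 58830001, 13 of 25 (52.0%) lay in the 1 kb from 58836001, beside 1 WCE read. On chromosome 2 at 74470001, 14 of 28 (50.0%) lay in the 1 kb from 74476001, together with 34 H3K27me3, 5 H3K4me3 and 3 WCE reads. The third of these was thus a shared H3K9me3 and H3K27me3 concentration, while on chromosome 6 the other libraries had 1 to 3 reads in the bin.

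The sites with most reads differed in shape. On chromosome 8 at 73520001, 5 bins in a row, from 3 to 8 kb into the tile, held 14 to 28 H3K9me3 reads each, and 50% of the reads spanned 2.34 kb. On chromosome 18 at 37940001 the reads fell into 2 groups, with 11 to 18 per kb between 1 and 4 kb and 12 to 14 between 6 and 9 kb. On chromosome 6 at 47950001 a single summit of 36 reads in the fifth bin was flanked by 9 and 19, and 50% of the reads spanned 1.12 kb. Over the 14 members with 50 reads or more this length had a median of 1.97 kb, against 2.67 kb in the 65 with 25 to 29. The 2 strands were balanced over the class, with 2153 forward and 2181 reverse reads in members, and the forward share ran from 30.3 to 72.0% per member.

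**Figure D4:**
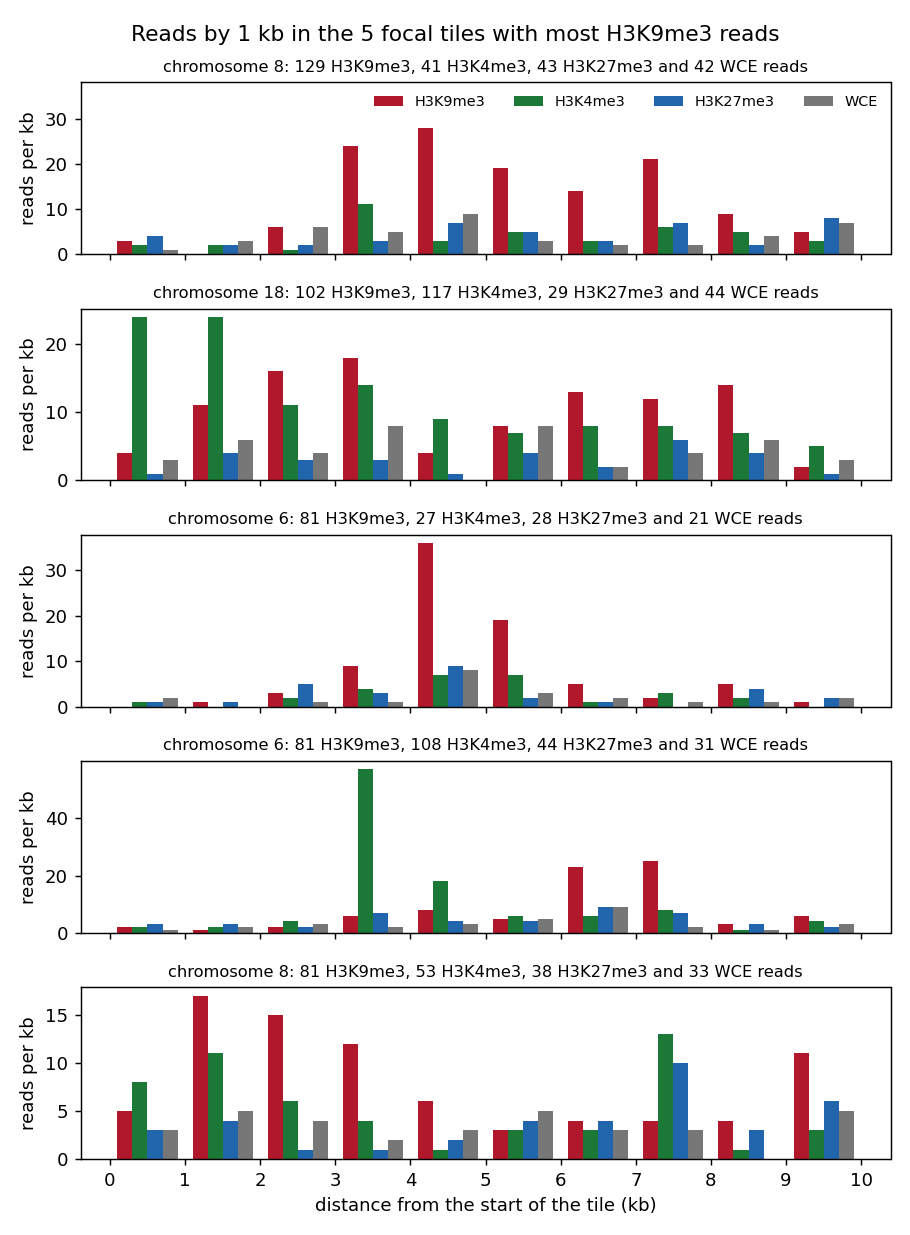
Reads per 1 kb of all 4 libraries across the 5 members with most H3K9me3 reads, by distance from the start of the tile. The second chromosome 6 tile has 57 H3K4me3 reads between 3 and 4 kb and 23 and 25 H3K9me3 reads between 6 and 8 kb, while the first has a single H3K9me3 summit of 36 reads.

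Tiles of the other classes had similar shapes. Among tiles with 25 to 29 H3K9me3 reads, the median share in the best 1 kb was 25% in members, 22.2% in 169 tiles of broad regions and 23.1% in 4359 tiles outside broad regions that had the reads but not the ratio. The interval with 50% of the reads had medians of 2.67, 3.12 and 3.01 kb. The differences are small beside the range among members, and they were not tested, since the reads that chose the classes also set their shape.

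The 100 kb limit removes places where several neighbouring tiles pass, so spacing between members and distance from broad regions are largely set by the rule and are given as a description. No 2 members were adjacent, and 117 of 123 had no other member within 100 kb. The median gap between neighbouring members on a chromosome was 8.73 Mb, and 13 of 105 gaps were 1 Mb or less. Joining members within 100 kb gave 120 clusters, 3 of them pairs and none larger. Members were also far from tiles that passed the same limits in broad regions: the median distance to the nearest was 6.0 Mb, with 4 members within 100 kb and 21 within 1 Mb.

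The 3 pairs differed in their other marks. On chromosome 12, tiles at 109500001 and 109550001 held 37 and 33 H3K9me3 reads beside 16 and 15 WCE reads, and 40 H3K27me3 reads each. On chromosome 15, tiles at 97070001 and 97140001 held 29 and 32 H3K9me3 reads, 13 WCE reads each, and 32 and 14 H3K27me3 reads, and H3K4me3 was called in the first of them (29 reads, 2.93-fold). On chromosome 2, tiles at 74470001 and 74550001 held 28 and 45 H3K9me3 reads beside 12 and 20 WCE reads, but 102 and 19 H3K27me3 reads. The first pair was alike in all 4 libraries, while in the last H3K27me3 stood at 1.81 times its surroundings in 1 tile (under the fold of 2, so not called) and at 0.650 in the other.

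Members were spread over 18 of 19 autosomes. Chromosome 8 had 13 (9.84 per 100 Mb), chromosome 7 had 12 (8.27) and chromosome 12 had 11 (9.13), while chromosome 1 had 3 (1.52) and chromosome 10 had 0. Tiles passing the limits in broad regions were most frequent on chromosomes 4 (74), 2 (56) and 5 (53), where members numbered 6, 4 and 10. Both kinds were frequent on chromosomes 8 (42 broad) and 12 (35) and rare on chromosomes 1 (1), 10 (3) and 16 (2). The difference in placement was not tested. WCE density differs between chromosomes, from 901 reads per Mb on chromosome 3 to 1805 on chromosome 19. Its part in these counts was not tested. On the X chromosome, outside the rule, 0 of 14494 tiles with reads passed the count and ratio, but the median tile there held 2 H3K9me3 reads against 7 on the autosomes.

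The other marks were tested in each library alone, so that neither the H3K9me3 nor the WCE counts entered. Reads in a tile were set against those in the other tiles of its 100 kb tile by an exact binomial test, one-sided for more reads. Calls needed a fold of at least 2 and an adjusted p under 0.05 (Benjamini-Hochberg, over every autosomal tile tested). The test compares places within 1 library and not conditions. H3K4me3 was called in 18 of 123 members (14.6%), where 5.76% of all 237280 tiles tested were called. H3K27me3 was called in 22 (17.9%), where 2.41% of 237530 tiles were. At a fold of at least 3, H3K4me3 was called in 11 members (background 4.19%) and H3K27me3 in 7 (background 0.808%). Both marks were called in 6 members, H3K4me3 alone in 12, H3K27me3 alone in 16 and neither in 89 (72.4%). Over all tiles these shares were 0.682% for both, 4.87% for H3K4me3 alone, 1.64% for H3K27me3 alone and 92.8% for neither, against 4.88%, 9.76% and 13.0% of members for the first 3.

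These shares have to be read beside tiles that could also have been called. Members have more reads than the usual tile, with a median of 17 H3K4me3 and 27 H3K27me3 reads against 5 and 8. In the 7374 tiles outside broad regions that had 25 H3K9me3 reads but not the ratio, H3K4me3 was called in 28.2% and H3K27me3 in 10.4%. In the 383 tiles of broad regions they were called in 6.53% and 4.70%. By this test, the share of members with H3K4me3 lay between these classes, and the share with H3K27me3 above both. The tiles with the reads but not the ratio had a median of 31 WCE reads, against 12 in members. The classes were chosen by the reads of these libraries, and the differences between them were not tested.

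Tested against WCE in the tile instead, H3K4me3 was called in 20 members (16.3%, background 4.57%) and H3K27me3 in 34 (27.6%, background 2.93%). The members' WCE counts were chosen low, which raises these ratios. Even so, many members called for H3K4me3 within its library, and some called for H3K27me3, were not called against WCE in the tile. On chromosome 12 at 56510001, for example, 22 H3K4me3, 28 H3K27me3 and 23 WCE reads gave calls within each library but none against WCE. Against the mean WCE of the 100 kb tile the counts were 14 (background 4.90%) and 22 (background 2.62%). Among the 30 members that reached 3 times the mean WCE of their 100 kb tile, the test within each library was also applied. It called H3K4me3 in 12 (40%, background 5.76%) and H3K27me3 in 10 (33.3%, background 2.41%). That test does not correct for tiles with more reads of every kind. For each mark, as many of these calls were missed by the test against WCE in the tile as were also made by it. The member on chromosome 12 named above is among the 30.

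**Figure D5:**
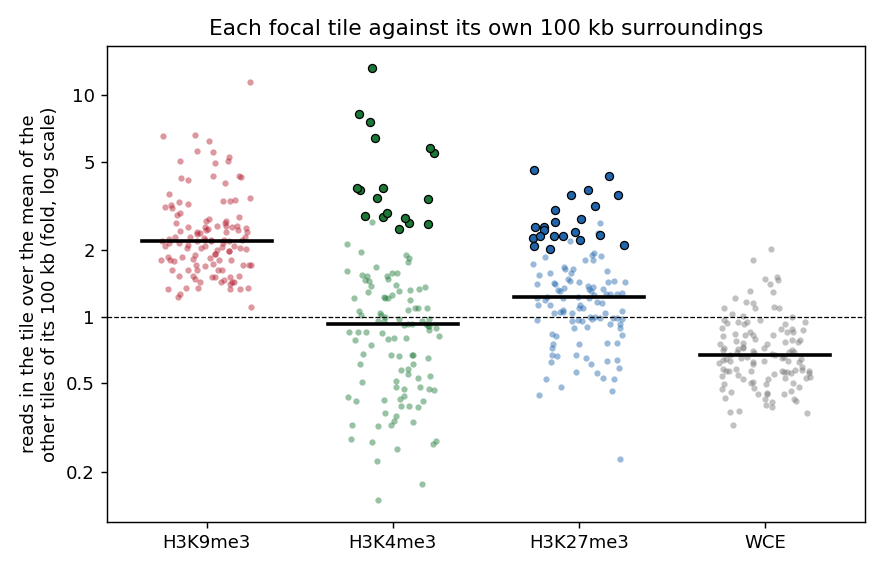
Reads in each of the 123 members over the mean of the other tiles of its 100 kb tile, on a log scale, for each library; bars are medians, and outlined points are members called for H3K4me3 (18) or H3K27me3 (22). H3K9me3 lies above 1 in all members and WCE below 1 in 105, while H3K4me3 and H3K27me3 range on both sides, with medians of 0.931 and 1.23.

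In most members H3K4me3 did not exceed the mean of its surroundings. The mark lay above that mean in 55 of 123 members (44.7%), against 36.8% of all tiles tested. The share was 54.9% in tiles with the reads but not the ratio and 60.3% in tiles of broad regions. The median H3K4me3 fold over the surroundings was 0.931 in all members (0.149 to 13.3), and in the 105 without a call it was 0.857. H3K27me3 had a median of 1.23 (0.229 to 4.58), and a median of 1.09 in the 101 without a call. It lay above its surroundings in 82 of 123 members (66.7%), against 44.6% of all tiles tested. The share was 65.5% in tiles with the reads but not the ratio and 59.8% in tiles of broad regions. Over all tiles the median folds were 0.750 for H3K4me3 and 0.938 for H3K27me3. By reads scaled to equal totals, H3K9me3 exceeded H3K4me3 in 113 members, H3K27me3 in 100 and both in 93. The rule required high H3K9me3, so this order is largely set by the choice of members. The share over all tiles is not given here.

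By fold over the surroundings, the strongest H3K4me3 at a focal site was on chromosome 16 at 17710001. There 272 H3K4me3 reads, 13.3 times the surroundings (exact binomial test, adjusted p = 3.53e-146), lay beside 80 H3K9me3, 24 H3K27me3 and 31 WCE reads. On chromosome 1 at 180170001 the tile held 201 H3K4me3 reads (7.57-fold, exact binomial adjusted p = 3.78e-80) and 25 H3K9me3, 14 H3K27me3 and 11 WCE reads. Chromosome 17 at 80630001 held 160 H3K4me3 (8.23-fold) and 37 H3K9me3 reads, and chromosome 8 at 37050001 held 153 (6.38-fold) and 72. Chromosome 13 at 38660001 held 101 (5.75-fold) and 32. In each of these 5 tiles H3K4me3 outnumbered H3K9me3, and none was called for H3K27me3.

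Both marks in 1 tile need not lie in the same place. The 1 kb bin with most H3K4me3 reads and the one with most H3K9me3 reads were the same in 6 of the 18 called members, adjacent in 5 and at least 2 kb apart in 7, with the first bin taken where bins tied. In 3 of the 12 that differed, the H3K4me3 bin held as many H3K9me3 reads as the H3K9me3 bin, so 9 of 18 coincided when such ties count as shared. On chromosome 16, the H3K4me3 summit, 150 reads in the 1 kb from 17711001, had 13 H3K9me3 reads, and the H3K9me3 summit 5 kb away, 19 reads from 17716001, had 6 H3K4me3 reads. On chromosome 6 at 48520001, 57 H3K4me3 reads lay in the 1 kb from 48523001 and 25 H3K9me3 reads in the 1 kb from 48527001, 4 kb apart. By contrast, both summits shared a bin on chromosome 8 from 37057001 (28 H3K9me3, 62 H3K4me3 and 7 WCE reads) and on chromosome 1 from 180173001 (9, 96 and 2). At this depth a best bin can rest on 5 H3K9me3 reads, and ties lay up to 6 kb apart (8 reads in each bin on chromosome 8 at 95930001), so many of these offsets are not resolved.

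Among called members, H3K27me3 had most reads on chromosome 5 at 108600001, with 108 (4.32-fold, exact binomial adjusted p = 7.43e-26) beside 25 H3K9me3, 59 H3K4me3 and 8 WCE reads. The largest H3K27me3 fold, 4.58, was on chromosome 4 at 33310001 (56 reads). H3K4me3 was also called in the chromosome 5 tile (2.85-fold, exact binomial adjusted p = 3.99e-09). On chromosome 15 at 97820001, 95 H3K27me3 reads (2.32-fold) lay beside 32 H3K9me3 reads, and on chromosome 8 at 86760001, 89 (2.31-fold) beside 29. Chromosome 3 at 107720001 held 74 H3K27me3 (3.54-fold) and 34 H3K9me3 reads, and chromosome 5 at 34600001 held 66 (3.74-fold) and 28. In each of these 5 tiles H3K27me3 reads outnumbered H3K9me3 reads, also after scaling.

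H3K27me3 and H3K9me3 summits were also at varied distances. They shared a 1 kb bin in 10 of 22 called members, were adjacent in 5 and lay at least 2 kb apart in 7. One of these 7, on chromosome 8 at 86760001, was a tie of 5 H3K9me3 reads in bins 4 kb apart. On chromosome 3 the 1 kb from 107724001 held 13 H3K9me3, 18 H3K27me3 and 1 WCE read, and on chromosome 5 the 1 kb from 34604001 held 12, 20 and 1. On chromosome 9 at 55340001 the first 1 kb of the tile held 21 H3K9me3, 17 H3K27me3, 23 H3K4me3 and 4 WCE reads. The difference from H3K4me3 in how often summits coincide was not tested.

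The 6 members called for both marks were few and mixed. Besides chromosome 5 at 108600001, chromosome 4 at 33310001 held 25 H3K9me3, 46 H3K4me3, 56 H3K27me3 and 11 WCE reads, and chromosome 11 at 49460001 held 29, 29, 50 and 12. Chromosome 6 at 112450001 held 40, 29, 37 and 18. Chromosome 6 at 137800001 held 29, 15, 20 and 10, and chromosome 12 at 56510001 held 62, 22, 28 and 23. Against WCE in the tile, both marks were called on chromosomes 4 and 5, H3K27me3 alone on chromosome 11, and neither mark in the other 3. On chromosome 12, WCE itself stood at 2.03 times its surroundings, so more reads of every kind lay in that tile. Pooled reads cannot tell marks on the same chromosomes from marks in different cells.

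Called H3K4me3 tiles were more common over the genome than called H3K27me3 tiles (5.76% against 2.41% of tiles). A called H3K4me3 tile was within 50 kb, the tile itself included, of 85 members (69.1%), at a median of 30 kb, and a called H3K27me3 tile of 40 (32.5%), at a median of 120 kb. The share over all autosomal tiles is not given here, so these values do not show that members lie closer than usual. For tiles with the reads but not the ratio the shares were 84.1% and 34.2%, and for tiles in broad regions 20.9% and 13.3%. Read density moved in the same way, with 17.8 to 21.2 scaled WCE reads per tile around members and 13.6 to 14.7 around tiles of broad regions. Its part in these distances was not tested.

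Reads with 2 reported positions, which the rule did not count, were few at the sites. Members held 84 such H3K9me3 entries and 63 WCE entries. Only 40 of 123 members had such an H3K9me3 entry, so the median ratio per tile was 0. Such entries made up 1.90% of H3K9me3 and 3.52% of WCE entries in members, against 6.50% and 5.56% over all tiles. H3K9me3 entries of this kind numbered 5 or more at 6 members, the most on chromosome 17 at 26040001 with 10 H3K9me3, 5 H3K4me3, 11 H3K27me3 and 6 WCE entries. On chromosome 7 at 5730001 and chromosome 11 at 82740001, 6 H3K9me3 entries faced 0 WCE entries. Repeated positions were no more common in members than elsewhere: 6.23% of H3K9me3 reads there, against 8.40% in the whole library.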

How the data were processed

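The deposited files list signed read positions and no counts per region. Per the file headers, reads were aligned to mm8 with Bowtie (e 70, k 2, m 2, n 2, l 36), and reads with 1 and with 2 reported positions are listed apart. Per the labels' protocols, sonication left DNA near 500 bp, and after 18 PCR cycles the 150 to 350 bp band was taken from a gel. Positions were collapsed to 1 per strand, moved 60 bp along the strand and counted in tiles from position 0. Tiles of 10 kb were assigned to 100 kb tiles, and reads were scaled by autosomal totals. Ratios have Clopper-Pearson 95% intervals. The tests within each library were checked on simulated Poisson counts with an equal mean across each 100 kb tile, apart from tiles raised on purpose. That is what the test assumes, so the check does not cover places that gain reads unevenly. The members and all choices were made with earlier results of these data known. Regions named are the 10 highest ratios with 1 read added, the 5 highest H3K9me3 counts, the clusters, and up to 10 members called for each other mark; others were chosen after their values were seen. Counting and tests ran in scipy 1.17.1 with numpy 2.4.6 under Python 3.11.15, and plots in matplotlib 3.10.9.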

Additional observations from a re-analysis of the deposited data

Results flagged for a closer look

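Reads with 2 reported positions lie outside the counts that chose the members. Pooled over the 123 members, their scaled H3K9me3 to WCE ratio was 1.89 (95% Clopper-Pearson interval 1.35 to 2.66, counting error only), from 84 and 63 entries. The same ratio was 1.18 over all autosomal tiles, 1.4 over tiles with the reads but not the ratio, and 3.05 over tiles that passed the limits in broad regions. Both positions of such a read are entered, so entries are not independent and the true origin of a read is unknown. The pooled value in members leaned on few tiles, since 40 of 123 held such an H3K9me3 entry and 6 held 5 or more. On chromosome 7 at 5730001 and chromosome 11 at 82740001, 6 H3K9me3 entries faced 0 WCE entries. The pooled ratio therefore does not describe the members at large. The difference between classes was not tested.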

How the results depend on the processing

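Of 38 alternatives, 26 moved a count by at most 1.5 times or a share by less than its counting error. This number overstates stability. A minimum of 1 WCE read could not change any member. The median ratio of reads with 2 positions was 0 in both settings, since most members had no such H3K9me3 entry. Counts were compared as bare numbers, so 12 H3K4me3 calls in 30 members passed as close to 18 in 123. The number of members followed the limits: 236 with at least 20 H3K9me3 reads, 58 with at least 30, 300 at a ratio of 2.5, 23 at a ratio of 4 and 57 with a lower limit on the 100 kb ratio. It fell to 30 where the larger of the tile's WCE count and the 100 kb mean was the denominator, an alternative chosen after seeing the data. With all reads kept, 170 tiles passed, 96 of them among the 123, and with scaling by the median 100 kb ratio 140 passed, 101 of them among the 123. H3K4me3 calls numbered 11 at a fold of at least 3 (background 4.19%) and 12 among those 30 members, which is 40% of them against 14.6% of all. H3K27me3 calls numbered 7 at that fold (background 0.808%), 34 against WCE in the tile, and 10 among the 30 members above. For both marks, as many of the calls among those 30 were missed against WCE in the tile as were also made there. The share of reads in the best 1 kb was 30% with a sliding interval and 27% in those 30. Depth limits every ratio: members held a median of 12 WCE reads, and the lower 95% limit of the ratio had a median of 1.74. No paired analysis was possible because each group holds 1 library.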
